A study of Mus musculus with 4 samples.

Results

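Trim33 peaks at the ends of long non-coding RNA (lncRNA) genes, away from the ends of protein-coding genes, were described in mouse T helper 17 (Th17) cells. A peak was taken if its summit was at most 1000 bp from an end of a RefSeq lncRNA gene and more than 1000 bp from every end of a protein-coding gene, on chromosomes 1 to 19. This gave 1068 peaks of the 26631 on these chromosomes (4.01%, exact binomial interval 3.78% to 4.25%), called lncRNA-end peaks below. The cells were naive CD4+ T cells from spleen and lymph nodes of C57BL/6 mice, stimulated through CD3 and CD28 with IL-6 and TGF-beta while IL-4 and IFN-gamma were blocked by antibodies. The age of the mice is not given in the labels. The series holds 2 Trim33 ChIP libraries and 2 input DNA libraries of such cells, with the same strain and culture in all 4, and the ChIP antibody came from Bethyl. The authors' peak list merges the ChIP replicates, so it has a single value per peak, and neither the depth of a library nor the spread between cultures is known here. No difference between kinds of peaks was therefore tested, and the intervals given cover counting error only. The identity of the cells could not be checked against marker transcripts, since the data are DNA occupancy.

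Trim33 is a ubiquitin ligase whose PHD finger and bromodomain bind histone H3 tails, and it works with SMAD proteins downstream of TGF-beta, a cytokine that drives Th17 differentiation. LncRNA genes are transcribed by RNA polymerase II like coding genes but their transcripts are not translated into long proteins. Some act as nuclear scaffolds, some carry microRNAs or small nucleolar RNAs in their transcripts, and many run antisense to a coding gene or start close to an enhancer. A peak at such an end marks where the protein was on chromatin and does not show that the RNA was made.

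The promoters below are shown because a lncRNA-end summit lay inside them and because they hold letters of motifs that were searched. Each is the RefSeq window of 250 bases before to 50 bases after an annotated start (GRCm38.p6, the assembly of mm10), read 5′ to 3′ on the strand of the lncRNA. Capitals mark the letters searched on both strands for AP-1 (TGANTCA), RUNX (TGTGGT), ETS (CGGAA) and CTCF (CCA, any 2 bases, AG, any 2 bases, GGC).
Gm41331, chr15:60141576-60141875, strand plus: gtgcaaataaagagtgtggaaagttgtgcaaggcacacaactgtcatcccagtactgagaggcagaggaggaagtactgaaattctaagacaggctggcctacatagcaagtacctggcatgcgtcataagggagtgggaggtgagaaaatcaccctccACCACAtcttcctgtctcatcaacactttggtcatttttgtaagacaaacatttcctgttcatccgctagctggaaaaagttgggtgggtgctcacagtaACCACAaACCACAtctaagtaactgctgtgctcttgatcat
Gm38326, chr3:60788111-60788410, strand plus: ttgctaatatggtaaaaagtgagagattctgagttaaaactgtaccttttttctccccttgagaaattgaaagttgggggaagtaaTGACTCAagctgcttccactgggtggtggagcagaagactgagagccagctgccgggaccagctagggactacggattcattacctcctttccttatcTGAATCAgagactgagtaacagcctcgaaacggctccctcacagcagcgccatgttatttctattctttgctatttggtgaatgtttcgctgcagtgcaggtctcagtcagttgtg
Malat1, chr19:5802623-5802922, strand minus: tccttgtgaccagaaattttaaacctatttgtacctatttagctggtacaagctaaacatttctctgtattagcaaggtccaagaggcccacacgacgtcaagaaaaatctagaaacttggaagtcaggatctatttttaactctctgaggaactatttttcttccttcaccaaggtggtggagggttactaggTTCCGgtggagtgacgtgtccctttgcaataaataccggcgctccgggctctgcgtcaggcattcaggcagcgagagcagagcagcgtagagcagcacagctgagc
Morrbid, chr2:128429302-128429601, strand minus: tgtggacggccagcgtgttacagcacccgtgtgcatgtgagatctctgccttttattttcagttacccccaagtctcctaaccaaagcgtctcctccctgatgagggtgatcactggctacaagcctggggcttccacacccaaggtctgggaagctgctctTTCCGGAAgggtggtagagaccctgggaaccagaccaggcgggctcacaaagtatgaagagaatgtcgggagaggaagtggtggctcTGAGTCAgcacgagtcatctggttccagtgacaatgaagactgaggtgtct
Snhg7, chr2:26640195-26640494, strand minus: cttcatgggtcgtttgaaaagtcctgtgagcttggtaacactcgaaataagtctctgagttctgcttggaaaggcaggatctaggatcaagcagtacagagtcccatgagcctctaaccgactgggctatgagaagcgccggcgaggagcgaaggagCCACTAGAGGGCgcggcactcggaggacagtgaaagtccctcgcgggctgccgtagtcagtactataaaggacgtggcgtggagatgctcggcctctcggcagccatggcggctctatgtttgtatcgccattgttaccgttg

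Gm41331 held the highest lncRNA-end peak of all, and its window had RUNX letters starting at base 160, 8 bases past the summit at base 152, and again at bases 260 and 267. The window of Gm38326 had AP-1 letters at bases 87 to 93 and 185 to 191, on either side of the summit at base 105. The Morrbid window had AP-1 letters at bases 250 to 256, across the start of the transcript and 7 bases past the summit at base 243. It also had a pair of overlapping ETS matches, at bases 163 to 167 and 166 to 170. In Snhg7 the CTCF letters ended at base 169, next to the summit at base 170, and in Malat1 the ETS letters at bases 195 to 199 lay before the summit at base 242. Gm38326 was chosen for printing after its value, 14.9-fold, was seen. These are matches of letters, not measured binding sites. RUNX letters were in 21.3% of lncRNA windows with a lncRNA-end summit and in 20.1% of all lncRNA windows, a share near the background.

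LncRNA-end peaks were about as high as other Trim33 peaks. The authors' fold enrichment, the signal at the summit over the background of the peak caller, was 2.79 at the lowest and 38.5 at the highest of the lncRNA-end peaks. Their median was 5.91 (quartiles 4.75 and 7.77). Peaks at coding ends had a median of 5.80 (4.68 and 7.54), and peaks away from both kinds of end 6.08 (4.95 and 7.90). The median of lncRNA-end peaks was thus 0.110 above that of coding-end peaks and, at −0.165, below that of peaks away from both. The second difference turned positive, at 0.0611, among peaks at or above the median fold of the list. The first turned to −0.190 when lncRNA genes with LOC or Gm symbols were left out. At 10-fold or more were 116 lncRNA-end peaks (10.9%, interval 9.06% to 12.9%), against 11.1% of all peaks, a share near the background. At 15-fold or more were 17 (1.59%), against 2.04% of all peaks. Their median width of 232 bp lay between 258 bp at coding ends and 218 bp away from both. No other Trim33 summit lay within 10 kb of 37.9% of them, against 48.7% of coding-end peaks and 39.9% of peaks away from both.

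**Figure D1:**
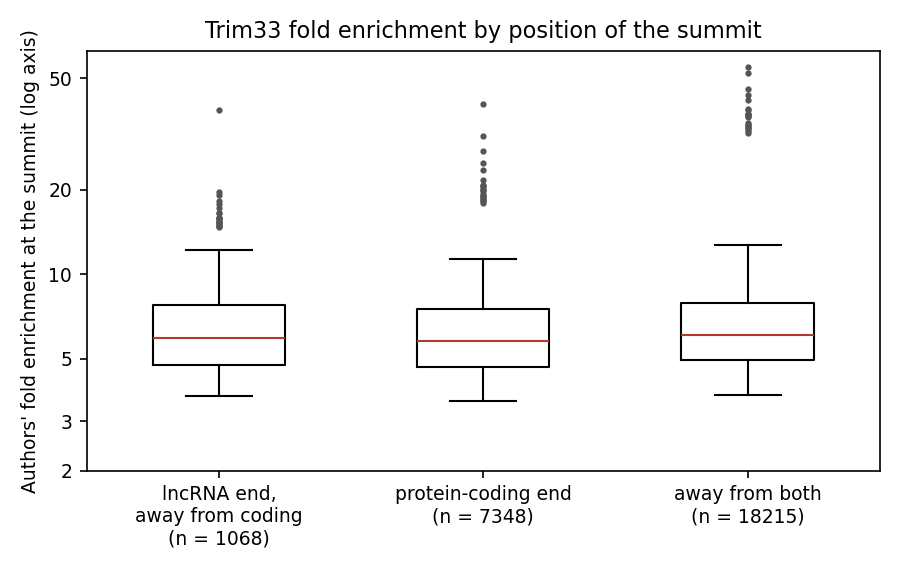
The authors' fold enrichment at the summit (log axis) is shown for lncRNA-end peaks (n = 1068), coding-end peaks (n = 7348) and peaks away from both (n = 18215). Boxes span the quartiles with the median as a line, whiskers the 5th to 95th percentiles, and points are the 20 highest peaks of each kind. The medians of 5.91, 5.80 and 6.08 lie close together, and the highest lncRNA-end peak, at 38.5, stands apart from the next at 19.7.

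The peaks gathered at the 5′ ends of lncRNA genes, where transcription starts. The RefSeq promoter table gave a strand to the nearest lncRNA of 814 of the 1068 peaks. Of these 814, 556 were nearest to a 5′ end (68.3%, interval 65.0% to 71.5%) and 258 to a 3′ end. Within 100 bp of the end lay 169 of the 556 peaks at 5′ ends (30.4%, interval 26.6% to 34.4%), against 13 of the 258 at 3′ ends (5.04%, interval 2.71% to 8.46%). The median distance was 246 bp at 5′ ends and 500 bp, the middle of the window, at 3′ ends. Around 5′ ends, 107 summits lay less than 100 bp upstream of the start and 62 lay on it or less than 100 bp downstream. Around 3′ ends these counts were 7 and 6. From 500 bp on the counts were closer, with 20 to 32 summits per 100 bp at 3′ ends and 25 to 41 at 5′ ends. In lncRNA genes over 2000 bp long, where the ends cannot share a window, the share at the 5′ end was 69.1%.

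**Figure D2:**
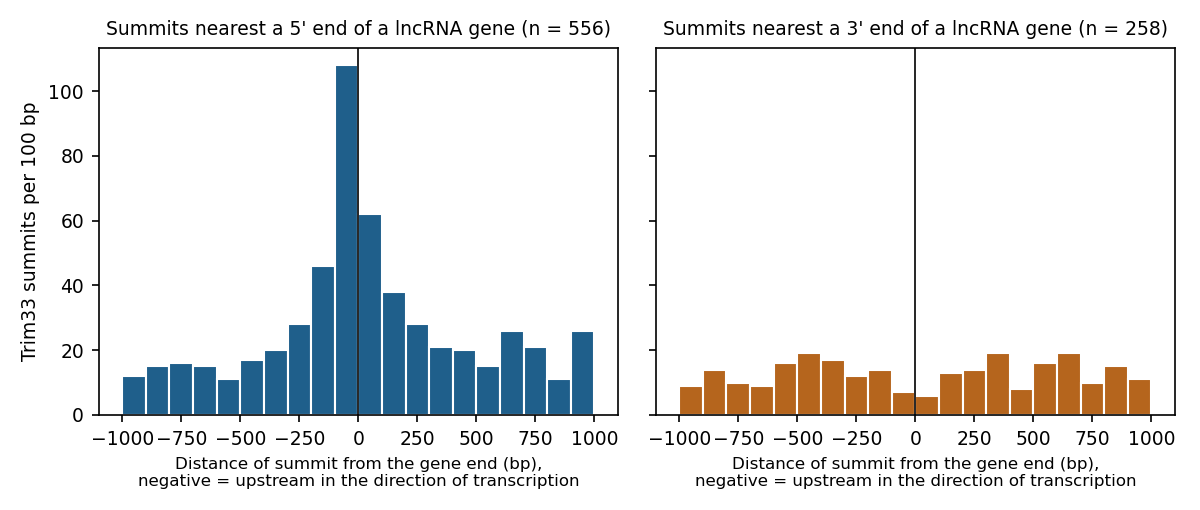
Summits per 100 bp are plotted against their distance from the nearest end of a lncRNA gene, with negative distances upstream in the direction of transcription, for 5′ ends (left, n = 556) and 3′ ends (right, n = 258). Counts at 5′ ends peak within 100 bp of the start, where 169 summits lie, and 3′ ends show no such peak, with 13.

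Height did not follow this position closely. Peaks at 5′ ends had a median fold of 5.81 (quartiles 4.77 and 7.74), against 5.77 (4.72 and 7.52) at 3′ ends. Within 100 bp of a 5′ end the median was 6.09, and 5.75 farther out. The 13 peaks within 100 bp of a 3′ end had a median of 4.46. Coding-end peaks were placed still closer to the start: of 5883 with a known strand, 5551 (94.4%) were nearest to a 5′ end, and 51.8% of these lay within 100 bp. At 3′ ends of coding genes, 25 of 332 peaks (7.53%) lay within 100 bp.

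The 12 highest lncRNA-end peaks reached 15.8-fold or more. Of these, 8 were at 5′ ends, 2 at 3′ ends and 2 had no strand. The peak at Gm41331 on chromosome 15 (60141197 to 60142324) had 38.5-fold enrichment and ranked 9 of all peaks on chromosomes 1 to 19, with its summit 99 bp upstream of the start and 125109 bp from the nearest coding end. Gm30549 had a 19.7-fold peak 595 bp inside its 5′ end, and 1700017M07Rik a 19.1-fold peak 82 bp outside its 5′ end and 477831 bp from a coding end. These peaks lay far from coding genes. Gm36496 had 18.2-fold enrichment (chromosome 12, 25190423 to 25191024), and the nearest coding gene was Id2, an inhibitor of E proteins, at 94488 bp. 4930546K05Rik reached 17.8-fold, Gm16537 17.2-fold, Gm46375 16.6-fold and 5830432E09Rik, whose start lies inside the phosphatase gene Ptpre, 16.5-fold. The last 4 of the 12 were Gm52811 (15.9-fold), Gm40799 (15.9-fold), 1700096K18Rik (15.9-fold) and Gm31812 (15.8-fold). At the other end of the range, AI662270 had 2.80-fold enrichment and Gm34851 and 1700012D14Rik 2.79-fold each.

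Of the 12408 lncRNA genes on these chromosomes, 934 had a lncRNA-end peak (7.53%). A further 702 (5.66%) had an end summit that was also within 1000 bp of a coding end, 954 (7.69%) had a summit in the body only, and 9818 (79.1%) had none. An end summit of any kind was found at 7156 of 20665 coding genes (34.6%). Genes with a curated RefSeq transcript (NR accession) had a lncRNA-end peak in 331 of 3221 cases (10.3%, interval 9.25% to 11.4%), and genes known only from model transcripts in 603 of 9187 (6.56%, interval 6.07% to 7.09%). The placement differed in the same way: 77.0% of stranded peaks at curated genes were at the 5′ end, against 62.7% at model genes. Median fold went the other way, 5.69 at curated and 6.07 at model genes. By chromosome, 5.55% to 10.8% of lncRNA genes had such a peak, with the highest share on chromosome 5.

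Among widely studied lncRNAs, 11 of 34 genes had a lncRNA-end peak, and all lncRNA genes together had one in 7.53%. Neat1, the scaffold of paraspeckles, had a 12.5-fold peak on chromosome 19 (5845392 to 5846098), 437 bp outside the gene. Malat1, its neighbour and an RNA of nuclear speckles, had a 7.87-fold peak 940 bp upstream of its start and a 5.59-fold peak 9 bp upstream. The highest of the list was Epb41l4aos, transcribed next to Epb41l4a, with 14.4-fold enrichment 77 bp outside the gene and 1512 bp from the coding end. Norad, which sequesters Pumilio proteins, had 6.81-fold enrichment 70 bp outside its end. Trp53cor1 (lincRNA-p21), a p53 target next to Cdkn1a, had 5.78-fold enrichment 93 bp inside. Chaserr, which restrains its neighbour Chd2, had 4.65-fold enrichment 85 bp outside.

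Some of these genes had a pair of peaks of unequal height. Mirt1 had 9.81-fold enrichment near its 3′ end and 3.47-fold 33 bp upstream of its start. Crnde had 7.97-fold and 4.49-fold peaks, and Lockd, just downstream of the cell cycle inhibitor gene Cdkn1b, 6.74-fold and 4.43-fold, all at 5′ ends. Mirt2 had a single peak of 4.83-fold. In 3 further genes of the list, the snoRNA host Gas5 (4.76-fold), Tug1 (4.94-fold) and Zfas1 (4.53-fold), the end summit was also at a coding end. Airn, Pvt1, Lncpint and Platr14 had summits in the body only, 16, 15, 10 and 2 of them. The other 16 genes, among them the imprinted Meg3 and H19 and the developmental Hotair and Fendrr, had no summit at an end or in the body.

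**Figure D3:**
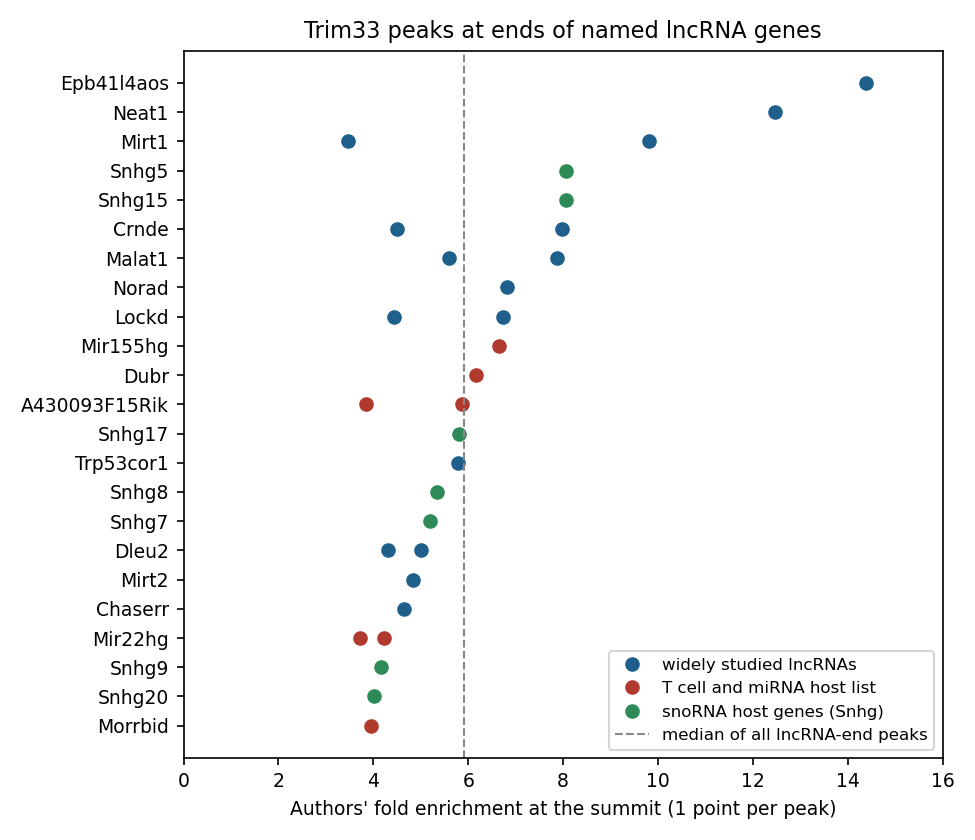
Each point is a lncRNA-end peak at a named lncRNA gene, plotted by the authors' fold enrichment at the summit; colours give the gene list and the dashed line the median of all lncRNA-end peaks, 5.91. Epb41l4aos (14.4) and Neat1 (12.5) are the 2 peaks above 10-fold, and Mirt1 has the widest gap between its peaks, 9.81 and 3.47.

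MicroRNA hosts and lncRNAs listed for T cells gave moderate values. Of the 35 genes of this list, 15 were not found among the lncRNA genes on chromosomes 1 to 19. Of the 20 found, 5 had a lncRNA-end peak, 5 had body summits only and 10 had none. Among all lncRNA genes, 7.53% had such a peak and 7.69% had body summits only. Mir155hg, the host of miR-155, which lymphocytes induce on activation and which Th17 responses need in mice, had a 6.65-fold peak 351 bp inside its 5′ end (chromosome 16, 84713078 to 84713491). Mir22hg had peaks of 4.23-fold and 3.71-fold, 334 and 974 bp upstream of its start. Dleu2 of the other list, which hosts miR-16-1, had 5.01-fold and 4.31-fold peaks at 168 and 525 bp upstream. Their mature microRNAs are printed because they are the known products of these 3 loci, with the seed (bases 2 to 8) in capitals, from RefSeq (GRCm38.p6).
mmu-miR-155-5p, Mir155hg, chr16:84714143-84714165, strand plus: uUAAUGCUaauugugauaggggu
mmu-miR-16-5p, Dleu2, chr14:61631936-61631957, strand minus: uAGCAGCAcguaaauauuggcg
mmu-miR-22-3p, Mir22hg, chr11:75463772-75463793, strand plus: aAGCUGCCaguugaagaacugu

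The 3 seeds differ, so these microRNAs do not share a seed family. Of the 1068 summits, 3 lay within 1000 bp of an annotated microRNA gene. Morrbid, known for restraining the pro-apoptotic gene Bcl2l11 in short-lived myeloid cells, had a low peak of 3.96-fold 8 bp upstream of its start and 9 summits in its body. Dubr had 6.16-fold enrichment 25 bp inside its start. A430093F15Rik, which starts beside the T cell surface gene Cd5, had peaks of 5.86-fold and 3.84-fold. Mir17hg, the host of the miR-17 to miR-92 cluster, and Ifngas1, a neighbour of Ifng, had no summit at an end or in the body.

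The Snhg genes, hosts of small nucleolar RNAs that guide RNA modification, were taken as a list after values were seen. They had lncRNA-end peaks in 7 of 18 cases. The share was 7.53% of all lncRNA genes and 11.5% of those without Gm, Rik or LOC symbols. All 7 peaks were at 5′ ends, 9 to 209 bp from the start, and none reached 10-fold. Snhg5 had 8.07-fold enrichment and Snhg15 8.05-fold, followed by Snhg17 (5.80-fold), Snhg8 (5.33-fold), Snhg7 (5.19-fold), Snhg9 (4.16-fold) and Snhg20 (4.02-fold). The summit at Snhg9 also lay inside Rps2, 89 bp from an annotated start of a coding gene. Snhg6 and Snhg1 had an end summit that was also at a coding end, and 9 had none.

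Some lncRNA genes had more than 1 lncRNA-end peak. Crowding of summits was near the background. At least 3 other summits lay within 10 kb of 14.9% of lncRNA-end peaks. The share was 14.4% for peaks away from both kinds of end and 12.6% for all peaks. At least 2 lncRNA-end peaks were found at 143 of the 934 genes, and at least 3 at 21 of them. Gm51701, with summits 32935 to 37801 bp from the chemokine receptor gene Ccr1, and Gm52095, with summits nearest to Arhgef3 and Tasor, had 4 each. The peaks of Gm51701 were even in height, 6.43-fold to 7.32-fold, and those of Gm52095 lay between 5.16-fold and 9.46-fold. The 2 summits of Gm52095 at its 5′ end were inside Tasor, 28 and 293 bp from an annotated coding start. Of the genes with 3, Gm11613 near Mllt6 reached 15.6-fold, Gm5464 15.3-fold, Gm32011 14.3-fold, Gm41309 12.2-fold and A630001O12Rik 10.6-fold. Gm32803 lay beside Cd2, a T cell adhesion gene, with peaks of 9.65-fold, 6.07-fold and 4.07-fold. 4833438C02Rik had summits inside the NF-kB gene Nfkb2, with peaks of 7.54-fold, 5.94-fold and 4.20-fold, 210 to 444 bp from an annotated coding start. The remaining 12 genes with 3 peaks were Gm32700, Gm26901, B330016D10Rik, 4930526I15Rik, Gm29243, 2410080I02Rik, Gm15558, Gm46126, 3300005D01Rik, Gm15327, Gm34995 and Gm15743, with highest values of 4.41-fold to 9.94-fold. Some of these also had a summit inside a coding gene and close to an annotated coding start. The closest was at 6 bp for Gm15327, 12 bp for Gm46126, 38 bp for Gm15743 and 195 bp for Gm34995.

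Coding genes were often close although their ends were excluded. Of the lncRNA-end peaks, 362 (33.9%) lay inside the body of a coding gene, against 54.5% of peaks away from both kinds of end. The nearest coding end was 1000 to 2500 bp away for 157 peaks (14.7%), against 9.26% of peaks away from both, and more than 100 kb away for 98 (9.18%, against 11.9%). In 239 peaks inside a coding gene with both strands known, the lncRNA ran antisense to that gene in 225 (94.1%). The share was 89.3% for all lncRNA ends inside a coding gene and more than 1000 bp from coding ends, with or without a peak. Of 467 peaks at 5′ ends with the strand of the coding gene known, 120 had a coding end within 5 kb. In 87 of these 120 (72.5%, interval 63.6% to 80.3%) that end was the start of a coding gene on the opposite strand. It was a start on the same strand in 5 and a 3′ end in 28. An opposite-strand start was nearest for 51.1% of 843 lncRNA 5′ ends lying 1000 bp to 5 kb from a coding end, with or without a peak. In both comparisons the 1000 bp limit was measured from the summit for peaks but from the lncRNA end itself for all ends. Ends closer than that to a coding end could thus count only among the peaks, and the sets are not alike. A limit of the rule shows here. At least 117 lncRNA-end peaks (11.0%) were within 1000 bp of an annotated coding start inside a gene, not at its outer end. Starts were known for 16457 of the 20665 coding genes, so peaks near other starts were not counted. Without the 117, 951 peaks were left, with a median fold of 5.95.

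Peaks nearest to coding genes of T cell biology were few. The nearest coding gene was in a list of T cell surface and receptor genes for 17 peaks (1.59%), against 1.08% of all summits over 1000 bp from coding ends. It was in a list of lymphocyte transcription factors for 22 (2.06%), against 2.62%, in the TGF-beta and SMAD list for 12 (1.12%), against 0.887%, and in the Th17 list for 4 (0.375%), against 0.861%. Each of these shares rests on few peaks and depends on the size of its list. The T cell surface peaks had the lowest median fold of the 4 lists, 4.94, against 5.85 for all such summits.

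Single neighbours of these lists had higher values. At Smad3, which carries the TGF-beta signal to the nucleus, Gm51710 had 11.9-fold and 6.23-fold peaks around its 3′ end, inside the coding gene and 19464 and 20222 bp from its 5′ end. Gm36496, Gm46343 and Gm36723, 94488 to 376283 bp from Id2 and with no coding gene nearer, had peaks of 18.2-fold, 9.76-fold and 5.53-fold. Gm20544 near the inhibitory Smad7 had 8.59-fold. Gm32255, whose start lies inside the activation factor gene Egr2, had 9.67-fold enrichment 26 bp inside its start and a 6.11-fold peak 676 bp upstream, 655 and 710 bp from an annotated coding start. Gm33619, 25875 bp from Myb, had 7.98-fold, Gm40679, 30705 bp from Egr2, 7.65-fold and Junos beside Jun 7.11-fold. Among T cell surface genes, Gm41950 had a 7.06-fold peak 39347 bp from Cxcr4 and Gm39323 a 6.95-fold peak 33933 bp from Thy1. Of the 4 peaks of the Th17 list, that of Gm46811 (8.32-fold) had its summit inside the IL-6 receptor gene Il6ra. That of 0610040F04Rik (6.22-fold) had its summit inside Bhlhe40. The others were far from their nearest coding gene: Gm45968 (5.34-fold) was 228244 bp from Nfkbiz and 9130015A21Rik (5.34-fold) 137389 bp from Ahr.

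The sequence of occupied lncRNA promoters was set beside that of other promoters. A lncRNA-end summit lay inside 221 promoter windows of 210 genes. Windows of a gene with several starts, or of neighbouring genes that share a peak, can overlap. A site in several windows was counted in each, which the intervals for motifs do not allow for. Their median GC content was 56.3%, between 48.3% in all 11311 lncRNA windows and 64.3% in the 4754 coding windows with a summit. CpG-rich windows (GC of at least 50% and an observed to expected CpG ratio of at least 0.6) made up 38.0% of the 221, against 86.7% of occupied coding windows and 12.1% of all lncRNA windows. Without summits near known coding starts inside genes, this share was 53 of 184 (28.8%). Among lncRNA genes with both ends over 2000 bp from coding ends, 52 of 383 CpG-rich windows held a summit (13.6%), against 119 of 8493 others (1.40%). The median fold was 6.16 in CpG-rich and 6.11 in other occupied lncRNA windows.

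AP-1 and CTCF letters were more frequent in occupied lncRNA promoters than in lncRNA promoters at large. The AP-1 letters were in 43 of 221 windows (19.5%, interval 14.5% to 25.3%), against 4.69% of occupied coding windows and 9.25% of all lncRNA windows. Almost all of these were in windows that were not CpG-rich, with 41 of 137 (29.9%), against 12.6% of such occupied coding windows and 10.1% of all such lncRNA windows. In CpG-rich windows they were in 2 of 84 (2.38%), against 3.47% of occupied coding and 3.14% of all lncRNA windows. The CTCF letters were in 22 windows (9.95%, interval 6.34% to 14.7%), against 3.89% of occupied coding windows and 2.61% of all lncRNA windows. They were in 11 of 84 CpG-rich windows (13.1%, against 3.57% of occupied coding and 3.50% of all lncRNA windows that were CpG-rich). In other windows they were in 11 of 137 (8.03%, against 6.00% of occupied coding and 2.48% of all lncRNA windows). AP-1 is the Fos, Jun and BATF family that T cell activation induces, and CTCF is the factor that holds chromatin loops.

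ETS letters were in 32.6% of occupied lncRNA windows, against 60.9% of occupied coding windows and 19.5% of all lncRNA windows. In CpG-rich windows that share was 45.2%, against 46.8% of all such lncRNA windows, and in other windows 24.8%, against 15.8%. The ETS core without the CpG (GGAAG) was in 77.8% of occupied lncRNA windows, against 78.1% of occupied coding windows and 69.7% of all lncRNA windows. The RUNX letters were in 21.3%, against 20.1% of all lncRNA windows, and STAT letters (TTCNNNGAA) in 11.3%, against 9.36%. The SMAD letters (CAGACA) were in 21.3%, against 25.1%, and the ROR letters (AGGTCA), which RORγt recognises, in 17.2%, against 19.1%. NF-kB letters (GGGNNTTCC) were in 7.24%, against 4.95%, IRF letters (GAAA, any 2 bases, GAAA) in 4.07%, against 3.6%, and the E-box (CANNTG) in 74.2%, against 78.3%. Matches of different motifs could overlap, and each was counted. The part of base composition in these shares was not tested. The distance from the summit to the nearest match in the window had a median of 16.5 bp for CTCF and 32 bp for AP-1. It was 48 bp for ETS, 65.5 bp for RUNX and 137 bp for STAT. In this order, the medians cover 22, 43, 72, 47 and 25 windows. The distance that matches placed anywhere in these windows would have was not computed, so the medians have no background.

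**Figure D4:**
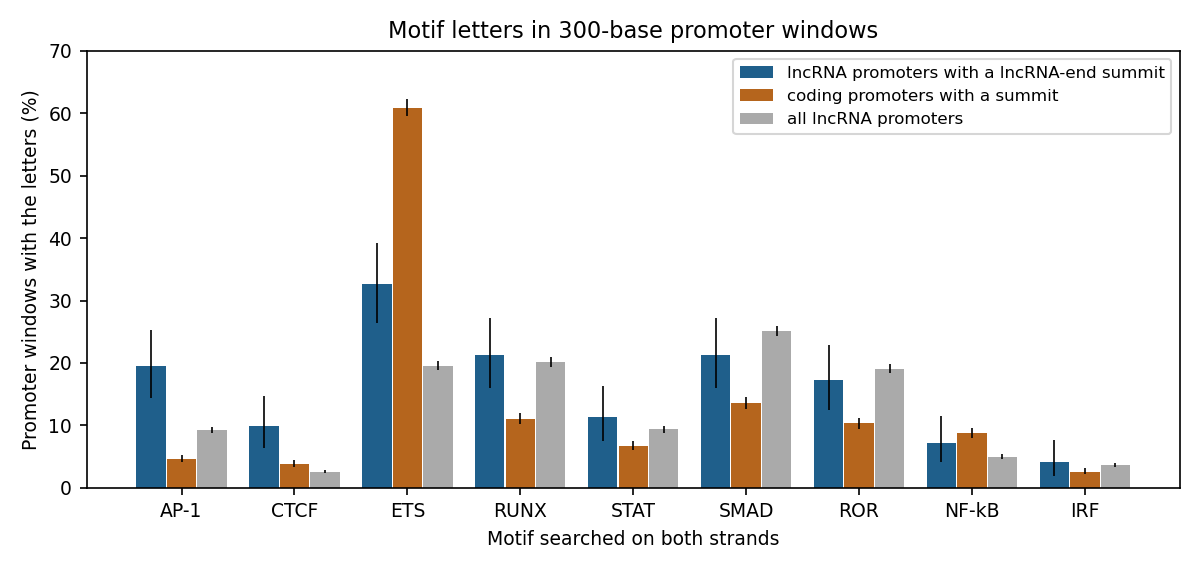
The share of 300-base promoter windows that hold each motif on either strand is shown for the 221 lncRNA windows with a lncRNA-end summit (blue), the 4754 coding windows with a summit (orange) and all 11311 lncRNA windows (grey); error bars are exact binomial 95% intervals. AP-1 (19.5%, 4.69% and 9.25%) and CTCF (9.95%, 3.89% and 2.61%) are highest in the blue bars, and ETS, searched as CGGAA, is highest in coding windows.

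The limits of the set cut through neighbouring values. Just inside the lncRNA limit lay peaks of Gm39323 and D730003K21Rik, both at 999 bp, with 6.95-fold and 5.19-fold enrichment. Just outside lay those of Gm34012 at 1001 bp (8.20-fold) and Gm35037 at 1002 bp (9.36-fold). At the coding limit, peaks of Gm46920 and 5031434O11Rik, both 1006 bp from a coding end, were in (4.49-fold and 5.06-fold). Those of Sp3os at 999 bp (6.34-fold) and LOC115487216 at 976 bp (9.93-fold) were out. In all, 893 of the 1961 summits within 1000 bp of a lncRNA end (45.5%) were left out because a coding end was also that close.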

How the data were processed

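Trim33 ChIP and input DNA were sequenced from cultured Th17 cells (2 libraries each). The authors called the deposited list on merged ChIP replicates. The submitters' processing notes name MACS2 2.1.1.20160309, Bowtie 1.2.1.1 and Trim Galore 0.3.7, and the build mm10. Which settings, control and cutoff were used is not given in the sources used here. The deposited values are a fold enrichment (a ratio), the −log10 of the q-value, and a score that was not used. A site strong in only 1 of the merged libraries can be a peak. Depth per library is unknown.

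Summits (counted from 1) were placed against gene ends from RefSeq (GRCm38.p6) with Python 3.11.15, pandas 2.3.3, numpy 2.4.6 and scipy 1.17.1. Strand, starts and promoter sequence came from the RefSeq promoter table. It held starts of 9291 of the 12408 lncRNA genes and 16457 of the 20665 coding genes. Named peaks on chromosome 18 had no known strand or start there, so strand and promoter results do not cover them. Shares have exact binomial (Clopper-Pearson) 95% intervals. Distance calls were tested on simulated summits. Motifs were read in promoter windows in place of the planned windows around summits, since no genome sequence was used here. The rule for named genes takes the 12 highest and 3 lowest peaks, genes with 3 or more peaks, peaks at the limits, every gene of the lncRNA lists with a peak, and peaks nearest to coding genes of 4 lists. Up to 3 of the highest peaks of each coding list were to be named, and peaks beyond these were chosen after their values were seen. The Snhg genes, taken by symbol, were likewise added after values were seen. The set of peaks and the lists were chosen with earlier results of these data known. Some results that the rule for named genes gives are not reported here. Alternatives changed the distances, the peak threshold and the lncRNA symbols.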

Additional observations from a re-analysis of the deposited data

Results flagged for a closer look

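Peaks on chromosome X are listed because they were outside all comparisons, and 15 of its 416 peaks (3.61%) met the same rule, against 4.01% on chromosomes 1 to 19, where single chromosomes had 3.04% to 5.71%. They had a median fold of 6.11. The highest was at Gm39535 (14.9-fold, near its 3′ end). The X-inactivation lncRNA genes Jpx (7.54-fold, 72 bp from its start) and Ftx (5.19-fold, 115 bp) were among them.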

How the results depend on the processing

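The share of peaks at lncRNA ends (4.01%) was 2.52% with a limit of 500 bp, 7.54% with a limit of 2500 bp, 3.42% and 2.35% when coding ends had to be over 2500 bp and over 10 kb away, 1.03% without LOC and Gm symbols and 3.57% without peaks near internal coding starts, the last chosen after the data were seen. The number of lncRNA genes (934) was 1609 with a lncRNA-end limit of 2500 bp, 559 with coding ends over 10 kb away, 497 and 490 in the upper parts of the list by fold and by −log10 q, and 226 without LOC and Gm symbols. By construction, the upper parts raised the median fold to 7.86 and 7.88, the share at 10-fold to 22.4% and 22.7% and the median width to 279 and 285.5 bp. Against peaks away from both kinds of end, the median fold difference turned to 0.0611 and 0.0556 there, and was −0.459 without LOC and Gm symbols. Against coding ends it was 0.310 with coding ends over 10 kb away and turned to −0.190 without LOC and Gm symbols, where the median was 5.61; with coding ends over 10 kb away it was 6.11. The share inside coding bodies was 30.7% with coding ends over 2500 bp away and 25.1% over 10 kb. The cause was not tested. Of 66 values under alternatives, 40 moved less, among them the number of lncRNA genes, which was 636 with a limit of 500 bp and 802 with coding ends over 2500 bp away. Reading motifs in shorter windows around the summit and leaving out a replicate were not run. No paired analysis was possible because a merged list holds no values per library.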
